A study of Mus musculus with 24 samples.

Results

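The genes described here encode the enzymes that make, interconvert and recycle nucleotides, the building blocks of DNA and RNA. A dividing T cell builds pyrimidine and purine rings from small precursors, reduces ribonucleotides to deoxynucleotides for DNA, and recovers nucleosides through salvage kinases and phosphorylases. Resting lymphocytes need few nucleotides, and blocking their synthesis is a long-used way of holding back lymphocyte proliferation. The list holds 41 genes taken by symbol, of which 5 belong to pyrimidine synthesis, 5 to deoxynucleotide and thymidylate synthesis, 12 to purine synthesis, 10 to salvage and nucleoside catabolism, 7 are nucleotide kinases and 2 are nucleotidases. The members were chosen by gene function with results of these arrays known, and Upp1 is treated as selected on its measured difference between genotypes in stimulated Th2 cells. Its values in that comparison and on restimulation are therefore a description, without a test. Probes were found for 38 of the 41 genes, and all 38 had at least 1 probe above background on at least 1 of the 24 arrays, among 10419 genes of the array of which the same was true. Expression of Pfas, Gmps and Cda was not analysed here.

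The arrays compared CD4+ T cells of WT mice with cells that lack BAF180, a subunit of the PBAF form of the SWI/SNF chromatin remodeling complex that is encoded by Pbrm1. In the BAF180-deficient mice a floxed part of Pbrm1 was removed by Cre recombinase under the control of the CD4 promoter. This promoter is active from a late stage of thymocyte development, and the study describes the deletion as specific to T cells. The labels give the strain as Balb/c, whereas the methods of the study describe a mixed strain background before the cross to CD4-Cre mice. Resting Naïve cells were CD62L+ CD4+ cells taken at 95% purity from spleens and lymph nodes of mice aged 4 to 6 weeks. For stimulated Naïve cells, anti-CD28 (2 µg/ml) was combined with anti-CD3 (1 µg/ml) over 24 h. Th2 cells grew from Naïve cells on these antibodies, with IL-4 (10 ng/ml) and an antibody to IFN-γ (10 µg/ml), received IL-2 (100 U/ml) after 24 h, and were expanded in it from day 3. PMA (50 ng/ml) and ionomycin (500 ng/ml) were given for 1.5 h to obtain stimulated Th2 cells, while resting Th2 cells received neither. There were 3 arrays for each of the 4 states in each genotype, and the labels letter them A, B and C.

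Between 8047 and 10689 of 25697 probes were detected per array, and replicate arrays of a group correlated at 0.949 to 0.989 across probes. Levels are log2 intensities after background correction and quantile normalization, a gene is represented by its brightest probe, and differences are given with the standard error of the fitted model. A difference of 1 on this scale is a change in intensity of 2 times, levels are not compared between genes, and 3 arrays per group limit the precision. The study describes its replicates as mice taken in pairs, one of each genotype, whereas the labels name them by letter only and do not say which states share a mouse. Pbrm1 was lower on every BAF180-deficient array than on every WT array in all 4 states, with a difference of -1.86 ± 0.23 in resting Th2 cells. All 7 T cell markers were detected in every group. Il5 and Il13 were detected on no resting Naïve array, on 1 to 3 arrays of each resting Th2 group and on every stimulated Th2 array. They were also detected in stimulated Naïve cells, as were 5 of the 7 Th2 markers in all. Il1rl1 was not detected in resting Th2 cells, nor Ccr4 in WT stimulated Th2 cells. Summed Th2 marker intensities were 886 to 2760 in stimulated Naïve, 1320 to 2490 in resting Th2 and 18800 to 21100 in stimulated Th2 cells. Resting Naïve arrays also carried RNA of other cells, so that 8 B cell markers summed to between 10900 and 18700 intensity units there and to between 507 and 2330 in the other states. The sums of 6 myeloid markers were 2520 to 5640 and 546 to 1300, with Lyz2, Tyrobp and Cd14 undetected outside resting Naïve cells. Those of 4 erythroid markers were 378 to 16300 and 78.8 to 358. These sums move with every comparison with resting Naïve cells that follows, and their part in it was not tested. In such bulk samples fewer cells of a type and less RNA per cell cannot be told apart.

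Sequence before the start sites was looked at because most members moved together on activation. Of the 39 members with an entry in the RefSeq promoter table (build GRCm38.p6), 6 hold the E-box CACGTG, the hexamer bound by MYC with its partner MAX, within the 250 bases before a start site. This is 15.4% of them, against 6.86% of the 27025 genes of the table. The E2F letters TTTCGCGC and TTTGGCGC, which can overlap on opposite strands, were found before none of the 39, and 0.759% of all genes hold either. CCAAT, the motif of NF-Y, was found before 12 of them, or 30.8%, against 37.5% of all genes. Both strands were searched, the motifs were chosen after the expression values were known, and a match describes letters and not a binding site. The shares of all genes are over every gene of the promoter table, whether detected on these arrays or not. A gene was counted when any of its annotated starts had a match, so genes with several starts had more chances. The shares were not tested against each other. For the 6 genes, 1 stretch of 80 bases each is shown 5′ to 3′ on the strand of the gene, with the E-box in capitals. Nme1 holds another E-box, 29 bases before another of its starts, which is not shown. The stretches show how the distance of the E-box to the start differs from gene to gene.
Dtymk (chr1:93802040-93802119, minus strand, from 185 to 106 bases before the start): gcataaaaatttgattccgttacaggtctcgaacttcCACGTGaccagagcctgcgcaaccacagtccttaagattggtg
Tyms (chr5:30073644-30073723, minus strand, from 98 to 19 bases before the start): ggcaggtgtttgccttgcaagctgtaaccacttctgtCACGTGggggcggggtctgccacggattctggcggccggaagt
Nme1 (chr11:93968273-93968352, minus strand, from 80 to 1 bases before the start): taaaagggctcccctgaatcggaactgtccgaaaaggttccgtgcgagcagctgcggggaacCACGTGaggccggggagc
Atic (chr1:71557076-71557155, plus strand, from 80 to 1 bases before the start): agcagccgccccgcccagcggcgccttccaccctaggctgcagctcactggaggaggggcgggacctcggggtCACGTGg
Impdh2 (chr9:108560289-108560368, plus strand, from 147 to 68 bases before the start): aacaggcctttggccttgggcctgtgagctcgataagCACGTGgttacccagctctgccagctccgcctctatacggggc
Paics (chr5:76951062-76951141, plus strand, from 240 to 161 bases before the start): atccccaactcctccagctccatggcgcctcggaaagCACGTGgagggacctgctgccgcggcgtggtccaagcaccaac
Of these 6 genes, Tyms, Dtymk, Nme1, Atic and Impdh2 rose on activation in both genotypes, and Paics did not pass the test in either. Among all 38 measured members 27, or 71.1%, rose in each genotype, and a link between the E-box and the rise was not tested. Myc itself read 4.52, 5.22 and 5.13 in resting Naïve and 6.31, 6.48 and 6.36 in stimulated Naïve cells of WT mice, a difference of 1.42 ± 0.31 (adjusted p = 0.000798). In restimulated WT Th2 cells it rose by 2.13 ± 0.31 (adjusted p = 2.33e-05). The part of MYC in the changes of the members was not tested.

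Activation of Naïve cells raised most of the nucleotide synthesis genes. In WT cells 27 of the 38 were higher after 24 h on anti-CD3 and anti-CD28 and 3 were lower, at a limma adjusted p below 0.05. Of all 10419 genes, 23.3% were higher and 21.9% were lower by the same rule. The median difference was 1.36 over the 38 genes and -0.0117 over all genes. In BAF180-deficient cells 27 were higher and 3 were lower, against 22.1% and 21.3% of all genes, and these were the same 27 and the same 3 genes. The call of Nme7 in BAF180-deficient cells was lost without resting Naïve replicate A or B or stimulated Naïve replicate C (0.68 to 0.78), and those of Adk (0.47) and Dck (0.37) without stimulated Naïve replicate C. The highest mean among the 4 states was in stimulated Naïve cells for 22 of the 38 genes in WT and for 29 in BAF180-deficient cells. The share of all genes with their highest mean there was not counted.

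**Figure D1:**
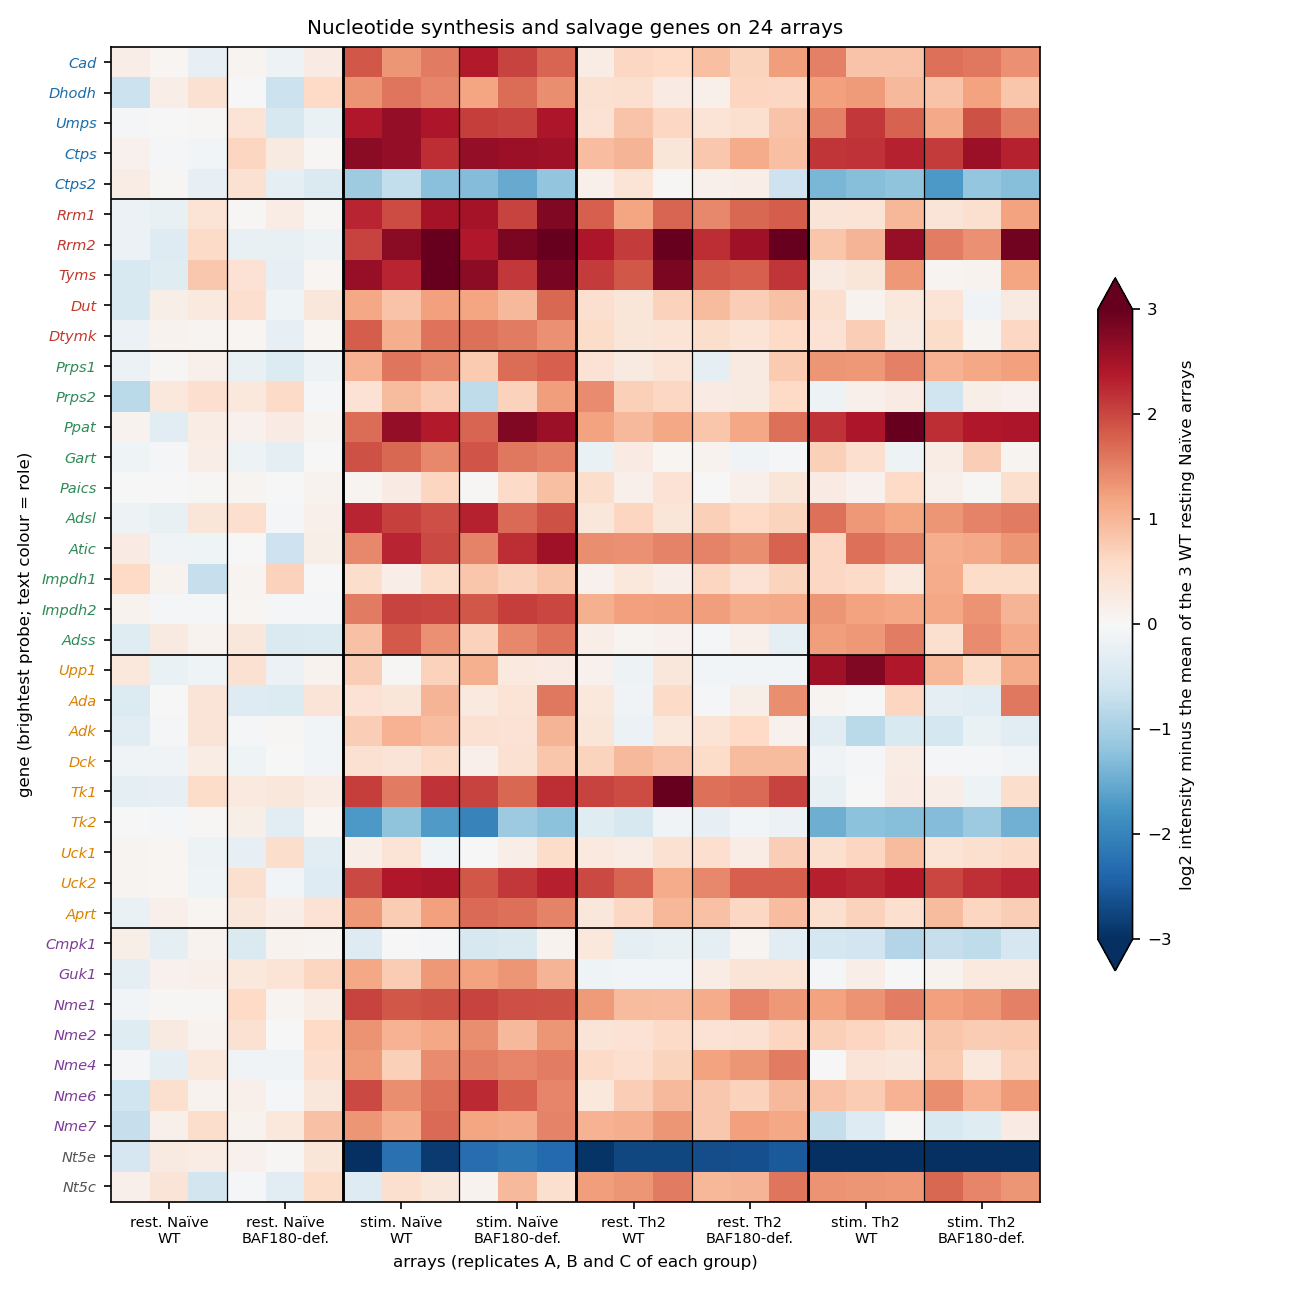
Level of each of the 38 genes (rows, gene names coloured by role and separated by lines) on each of the 24 arrays (columns, 3 per group), as log2 intensity minus the mean of the 3 WT resting Naïve arrays; red is higher, blue is lower, and the colours saturate at 3 and -3. Most rows turn red in the stimulated Naïve columns, Nt5e turns blue in every other state, and the row of Upp1 is reddest in WT stimulated Th2 cells.

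Of the 5 pyrimidine genes, 4 rose on activation and 1 fell, in both genotypes. Cad is the enzyme of the first 3 steps, Dhodh oxidizes dihydroorotate in mitochondria, Umps completes UMP, and Ctps turns UTP into CTP. On the WT arrays A, B and C, Umps read 6.32, 6.40 and 6.42 in resting Naïve, 8.78, 9.01 and 8.80 in stimulated Naïve, 6.82, 7.24 and 6.99 in resting Th2 and 7.89, 8.49 and 8.14 in stimulated Th2 cells. Ctps read 8.14, 7.95 and 7.93 in resting Naïve, 10.72, 10.65 and 10.23 in stimulated Naïve, 8.94, 9.03 and 8.36 in resting Th2 and 10.14, 10.18 and 10.32 in stimulated Th2 cells. For Umps all 3 stimulated Naïve arrays lie above all other WT arrays, and for Ctps 1 of them lies within the range of stimulated Th2 cells. On activation Ctps rose by 2.53 ± 0.18 in WT and 2.27 ± 0.18 in BAF180-deficient cells. Umps rose by 2.49 ± 0.22 and 2.27 ± 0.22, Cad by 1.58 ± 0.21 and 1.99 ± 0.21, and Dhodh by 1.47 ± 0.27 and 1.45 ± 0.27, with adjusted p-values of at most 0.000156. The isozyme Ctps2 went the other way. It read 6.69, 6.52 and 6.22 in resting Naïve, 5.40, 5.73 and 5.22 in stimulated Naïve, 6.63, 6.88 and 6.51 in resting Th2 and 5.10, 5.21 and 5.27 in stimulated Th2 cells of WT mice. Every stimulated WT array, Naïve or Th2, lies below every resting one, and Ctps2 fell by 1.03 ± 0.23 on activation (adjusted p = 0.00114).

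All 5 enzymes that supply deoxynucleotides rose. Rrm1 and Rrm2 encode the large and small subunits of ribonucleotide reductase, Tyms makes dTMP from dUMP, Dut hydrolyses dUTP, and Dtymk phosphorylates dTMP. Tyms read 7.12, 7.21 and 8.37 in resting Naïve, 10.19, 9.86 and 10.64 in stimulated Naïve, 9.67, 9.42 and 10.40 in resting Th2 and 7.83, 7.94 and 8.86 in stimulated Th2 cells on the WT arrays. In BAF180-deficient mice it read 7.99, 7.31 and 7.63 in resting Naïve, 10.25, 9.69 and 10.42 in stimulated Naïve, 9.41, 9.37 and 9.72 in resting Th2 and 7.66, 7.68 and 8.76 in stimulated Th2 cells. All stimulated Naïve and resting Th2 arrays lie above all resting Naïve and stimulated Th2 arrays in either genotype. The difference on activation was 2.66 ± 0.36 in WT cells (adjusted p = 4.94e-06) and 2.47 ± 0.36 in BAF180-deficient cells, a rise of 6.34 and 5.56 times in intensity. Rrm2 rose by 2.60 ± 0.49, Rrm1 by 2.26 ± 0.25 and Dtymk by 1.51 ± 0.18 in WT cells. In BAF180-deficient resting Naïve cells Rrm2 was not detected, which makes its rise there at least 7.79 times. Dut had the smallest difference of these genes, 1.09 ± 0.22, and read 4.48, 5.11 and 5.23 in resting Naïve and 6.09, 5.80 and 6.18 in stimulated Naïve cells, without overlap. The probes of Tyms do not give 1 value. A second probe, detected on 17 arrays but on none of resting Naïve WT cells, was higher in stimulated ones by at least 2.21 times. The other 2 kept probes did not pass. One, detected on 14 arrays, differed by -0.11, and the other was detected on 2 arrays in all and on none of these.

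Of the 10 purine synthesis genes with a probe, 7 rose on activation in each genotype. The pathway starts from phosphoribosyl pyrophosphate, made by Prps1 and Prps2, and Ppat catalyses its committed step. Gart, Paics, Adsl and Atic build the ring, Adss leads on to AMP, and Impdh1 and Impdh2 lead on to GMP. Ppat read 5.28, 4.86 and 5.41 in resting Naïve, 6.86, 7.83 and 7.56 in stimulated Naïve, 6.38, 6.16 and 6.35 in resting Th2 and 7.35, 7.60 and 8.32 in stimulated Th2 cells on the WT arrays. All stimulated arrays of either lineage lie above all resting arrays, and Ppat rose by 2.23 ± 0.28 (adjusted p = 1.65e-06), the largest difference of the group. Adsl rose by 2.09 ± 0.19, Atic by 1.90 ± 0.28, Impdh2 by 1.86 ± 0.13, Gart by 1.68 ± 0.20, Prps1 by 1.37 ± 0.24 and Adss by 1.35 ± 0.28. The probe of Paics, which had the smallest difference, was detected on 6 of 24 arrays and on none of the resting Naïve ones. It read 4.14, 4.14 and 4.19 in resting Naïve, 4.23, 4.40 and 4.80 in stimulated Naïve, 4.69, 4.30 and 4.58 in resting Th2 and 4.40, 4.29 and 4.76 in stimulated Th2 cells of WT mice, so that the resting Naïve arrays lie below all others while the other states overlap, and no fold is given because most arrays have only a bound. Paics did not pass the test in WT cells (0.32 ± 0.19, adjusted p = 0.196). In BAF180-deficient cells its difference was 0.44 ± 0.19, with an adjusted p of 0.072, and of 0.0261 with the replicate letter as a block. Prps2 (0.71 ± 0.39) and Impdh1 (0.43 ± 0.24) did not pass either. The value of Impdh1 without WT resting Naïve replicate A was 0.72, with an adjusted p of 0.0164.

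The 9 measured salvage genes split on activation, 5 up, 1 down and 3 without a call. Uck2 phosphorylates uridine and cytidine, and read 8.64, 8.61 and 8.42 in resting Naïve, 10.54, 10.96 and 11.01 in stimulated Naïve, 10.53, 10.30 and 9.66 in resting Th2 and 10.88, 10.81 and 10.94 in stimulated Th2 cells on the WT arrays. Its stimulated Naïve arrays all lie above its resting Naïve arrays, by 2.28 ± 0.22 (adjusted p = 3.82e-08). The thymidine kinases diverged: cytosolic Tk1, known for its S phase expression, rose by 1.93 ± 0.26, whereas mitochondrial Tk2 fell by 1.54 ± 0.20. Tk2 read 8.02, 7.97 and 8.04 in resting Naïve, 6.28, 6.81 and 6.32 in stimulated Naïve, 7.65, 7.54 and 7.91 in resting Th2 and 6.55, 6.78 and 6.74 in stimulated Th2 cells, with resting cells of both lineages above stimulated ones and no overlap. Aprt, which recovers adenine, rose by 1.11 ± 0.17, and Adk, which recovers adenosine, by 0.91 ± 0.20. Dck, the deoxycytidine kinase, was not detected in resting Naïve cells and read 4.22, 4.22 and 4.57 in resting Naïve, 4.79, 4.72 and 4.92 in stimulated Naïve, 5.01, 5.32 and 5.20 in resting Th2 and 4.22, 4.28 and 4.55 in stimulated Th2 cells. Its difference of 0.47 ± 0.16 passed at an adjusted p of 0.0195 and no fold is given, since its resting level has only a bound. The call was lost without WT resting Naïve replicate A, without replicate B and without WT stimulated Naïve replicate C, with a difference of 0.41 each time. Ada, which deaminates adenosine, differed by 0.60 ± 0.45 (adjusted p = 0.308, and 0.0429 with the replicate letter as a block). Uck1 (0.18 ± 0.20) was also without a call. Upp1, which was not detected in resting Naïve WT cells, was higher in stimulated ones by at least 1.17 times and was not called either. Its adjusted p was 0.0976, and it was 0.0465 with the block. Without WT resting Naïve replicate A it was 0.0471 and without WT stimulated Naïve replicate B it was 0.0252.

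Nucleotide kinases pass phosphate from ATP to other nucleotides, and 6 of 7 rose. Nme1 and Nme2 are the main nucleoside diphosphate kinases. Nme1 read 11.04, 11.15 and 11.15 in resting Naïve, 13.13, 12.98 and 13.02 in stimulated Naïve, 12.38, 12.06 and 12.05 in resting Th2 and 12.32, 12.46 and 12.65 in stimulated Th2 cells of WT mice. Its stimulated Naïve arrays lie above all other WT arrays, and the difference was 1.93 ± 0.14 (adjusted p = 9.69e-10). Nme6 rose by 1.66 ± 0.24, Nme7 by 1.37 ± 0.27, Nme2 by 1.19 ± 0.16, Nme4, the mitochondrial member, by 1.13 ± 0.20, and Guk1, the guanylate kinase, by 1.07 ± 0.15. Cmpk1, which phosphorylates UMP and CMP, read 8.42, 7.96 and 8.35 in resting Naïve, 7.85, 8.24 and 8.18 in stimulated Naïve, 8.57, 7.97 and 8.01 in resting Th2 and 7.72, 7.66 and 7.36 in stimulated Th2 cells. Its resting Naïve, stimulated Naïve and resting Th2 arrays overlap, and the difference on activation was -0.16 ± 0.20 (adjusted p = 0.579). Of the 2 nucleotidases, which remove phosphate, 1 fell and 1 was not called. Nt5e, the surface enzyme CD73 that makes adenosine from AMP, had the largest fall of all 38 genes. It read 7.96, 8.74 and 8.68 in resting Naïve, 4.99, 6.21 and 5.60 in stimulated Naïve, 5.52, 5.73 and 5.72 in resting Th2 and 4.35, 4.42 and 4.40 in stimulated Th2 cells. No stimulated or Th2 array reaches the lowest resting Naïve array, and Nt5e fell by 2.86 ± 0.24 in WT cells (adjusted p = 6.22e-09), with a difference of -2.45 ± 0.24 in BAF180-deficient cells. Cytosolic Nt5c differed by 0.14 ± 0.27 and was not called.

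Of 18 members with more than 1 kept probe, 12 had probes that all gave the same sign and call on activation of WT cells, and 6 did not. For Nme7, Tk1, Nme4 and Tyms the brightest probe was called and a dimmer one was not, and for Impdh1 and Uck1 a dimmer probe was called, higher in stimulated cells, where the brightest was not. These probes of Impdh1, Uck1, Tk1 and Nme4 were detected on 10, 15, 11 and 11 of the 24 arrays and on none of resting Naïve WT cells, so that their differences are not given.

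Other genes of the pathways around the members moved as follows in WT activation. One-carbon and folate genes, whose products supply carbon for purines and dTMP, were higher in 11 of 12 cases with a median of 2.22, led by Psat1 (3.93 ± 0.25) and Mthfd2 (2.62 ± 0.31). Of 8 pentose phosphate genes, which supply ribose, 6 were higher and 1 was lower, led by Pgd (1.24 ± 0.20) and G6pdx (0.94 ± 0.19). Among 13 further salvage genes and kinases 5 were higher and 1 lower, and the largest differences were those of Dctpp1 (3.47 ± 0.31), which hydrolyses dCTP, and Dctd (3.29 ± 0.39), which makes dUMP. Of 13 nucleotide breakdown genes 3 were higher and 2 were lower, with a median of -0.22, where 23.3% and 21.9% of all genes were so. Ampd1, an AMP deaminase, was not detected in stimulated Naïve cells and was lower by at least 3.79 times, and Nudt1, which clears oxidized nucleotides, was not detected in resting ones and was higher by at least 2.63 times. Of 4 nucleoside transporters, which had a median of -0.49, 1 was higher, Slc29a1 (1.42 ± 0.25), and 2 were lower, among them Slc28a2 (-1.11 ± 0.21). All 18 S phase markers and all 8 mitosis markers rose, with medians of 2.08 and 2.05. The part of cell division in the rise of the members was not tested.

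In resting Th2 cells more of these genes stood above than below their resting Naïve level, and more stood below than above their stimulated Naïve level. Against resting Naïve cells, 18 of the 38 genes were higher and 1 was lower in WT, against 17.9% and 17.6% of all genes. In BAF180-deficient cells 19 were higher and 1 was lower, against 18.2% and 17.5%. The genotypes shared 16 of the genes that were higher, 88.9% of the WT list and 84.2% of the other. The 5 largest differences in WT cells were 2.72 ± 0.49 for Rrm2, 2.34 ± 0.26 for Tk1, 2.26 ± 0.36 for Tyms, 1.61 ± 0.22 for Uck2 and 1.56 ± 0.25 for Rrm1, among genes that were higher. Of the other deoxynucleotide genes, Dut and Dtymk were not called. The pyrimidine genes stood closer to the resting Naïve level, with 0.77 ± 0.18 for Ctps, 0.64 ± 0.22 for Umps (adjusted p = 0.0269) and 0.48 ± 0.21 for Cad, which was not called. Nt5e was the 1 gene that was lower (-2.80 ± 0.24), and Nt5c was higher by 1.38 ± 0.27. With the replicate letter as a block, Dut (0.51, adjusted p = 0.0321) and Prps2 (0.92, adjusted p = 0.0445) were also called in WT cells, and Prps1 (0.53, 0.0394), Ada (0.65, 0.0355) and Nme7 (0.64, 0.00631) in BAF180-deficient cells. Single arrays decided some WT calls. That of Umps was lost without resting Naïve replicate A or B or resting Th2 replicate B or C (0.53 to 0.65), that of Nme4 without resting Naïve replicate A or B or resting Th2 replicate A or C (0.46 to 0.60), that of Nme2 without resting Naïve replicate A or any resting Th2 replicate (0.28 to 0.50), and that of Nme6 without resting Naïve replicate A or resting Th2 replicate B or C (0.37 to 0.64). In BAF180-deficient cells the calls of Aprt, Nme6, Dtymk, Dut, Umps and Ctps were each lost without 1 of 2 or more arrays, with differences of 0.43 to 0.69.

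Set against stimulated Naïve cells, resting Th2 cells had 18 of the genes lower and 3 higher in WT, where 12.1% and 11.4% of all genes were so. In BAF180-deficient cells the numbers were 17 and 2, against 11.1% and 10.9%. This comparison uses the same stimulated Naïve arrays as that of activation, so the values stand side by side and are not independent of it. The lowest WT differences were -1.85 ± 0.22 for Umps, -1.76 ± 0.18 for Ctps, -1.65 ± 0.19 for Adsl and -1.64 ± 0.20 for Gart. Gart, which carries 3 activities of purine ring synthesis, read 8.07, 8.14 and 8.41 in resting Naïve, 10.12, 9.92 and 9.64 in stimulated Naïve, 8.01, 8.46 and 8.27 in resting Th2 and 8.91, 8.70 and 8.05 in stimulated Th2 cells, and its resting Th2 arrays overlap its resting Naïve arrays. Adsl, which acts in 2 steps of purine synthesis, read 6.17, 6.11 and 6.70 in resting Naïve, 8.62, 8.37 and 8.27 in stimulated Naïve, 6.67, 6.96 and 6.68 in resting Th2 and 7.99, 7.63 and 7.50 in stimulated Th2 cells, with 2 resting Th2 arrays below the highest resting Naïve one. Guk1 read 8.21, 8.65 and 8.67 in resting Naïve, 9.67, 9.26 and 9.81 in stimulated Naïve, 8.38, 8.42 and 8.43 in resting Th2 and 8.47, 8.72 and 8.49 in stimulated Th2 cells, with no array of resting Th2 cells above the highest resting Naïve one. By contrast Rrm2 (0.12 ± 0.49), Tyms (-0.40 ± 0.36) and Tk1 (0.41 ± 0.26) were not called. The genes that were higher were Nt5c (1.24 ± 0.27), Tk2 (1.23 ± 0.20) and Ctps2 (1.22 ± 0.23). Rrm1 was lower in both genotypes, with differences of -0.69 ± 0.25 and -0.78 ± 0.25. Its call was lost in WT cells without stimulated Naïve replicate A or C or resting Th2 replicate B or C (-0.50 to -0.78), and in BAF180-deficient cells without stimulated Naïve replicate A or C or resting Th2 replicate A or B (-0.61 to -0.81). With the block, Dut (-0.57, adjusted p = 0.0264), Nme4 (-0.54, 0.018) and Dck (0.37, 0.0491) were also called in WT cells, and Tyms (-0.62, 0.0487) in BAF180-deficient cells, as was Upp1 (0.0272), which was not detected in the resting Th2 cells there.

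Restimulation of Th2 cells split the list. After 1.5 h of PMA and ionomycin 10 of the 38 genes were higher and 10 were lower in WT cells, where 12.5% of all genes were higher and 15.9% were lower. In BAF180-deficient cells 8 were higher and 11 were lower, against 11.7% and 15.4%. All 8 of those higher without BAF180 were also higher in WT cells, 80% of the WT list, and 9 genes were lower in both genotypes, 90% and 81.8% of the lists. The WT genes that were higher were 4 of 5 pyrimidine genes, 4 of 10 purine genes (Prps1, Ppat, Adsl and Adss) and, from salvage, Uck2 and Upp1. Those that were lower were 2 of 5 deoxynucleotide genes, 4 of 9 salvage genes, 2 of 7 kinases, Nt5e and Ctps2. Upp1 is among the 10 and the 8 by the same rule, which is no test of it because it was treated as selected. Without it 9 of 37 genes were higher in WT and 7 in BAF180-deficient cells. The median difference was 0.00583 over the 38 genes and -0.0115 over all genes.

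**Figure D2:**
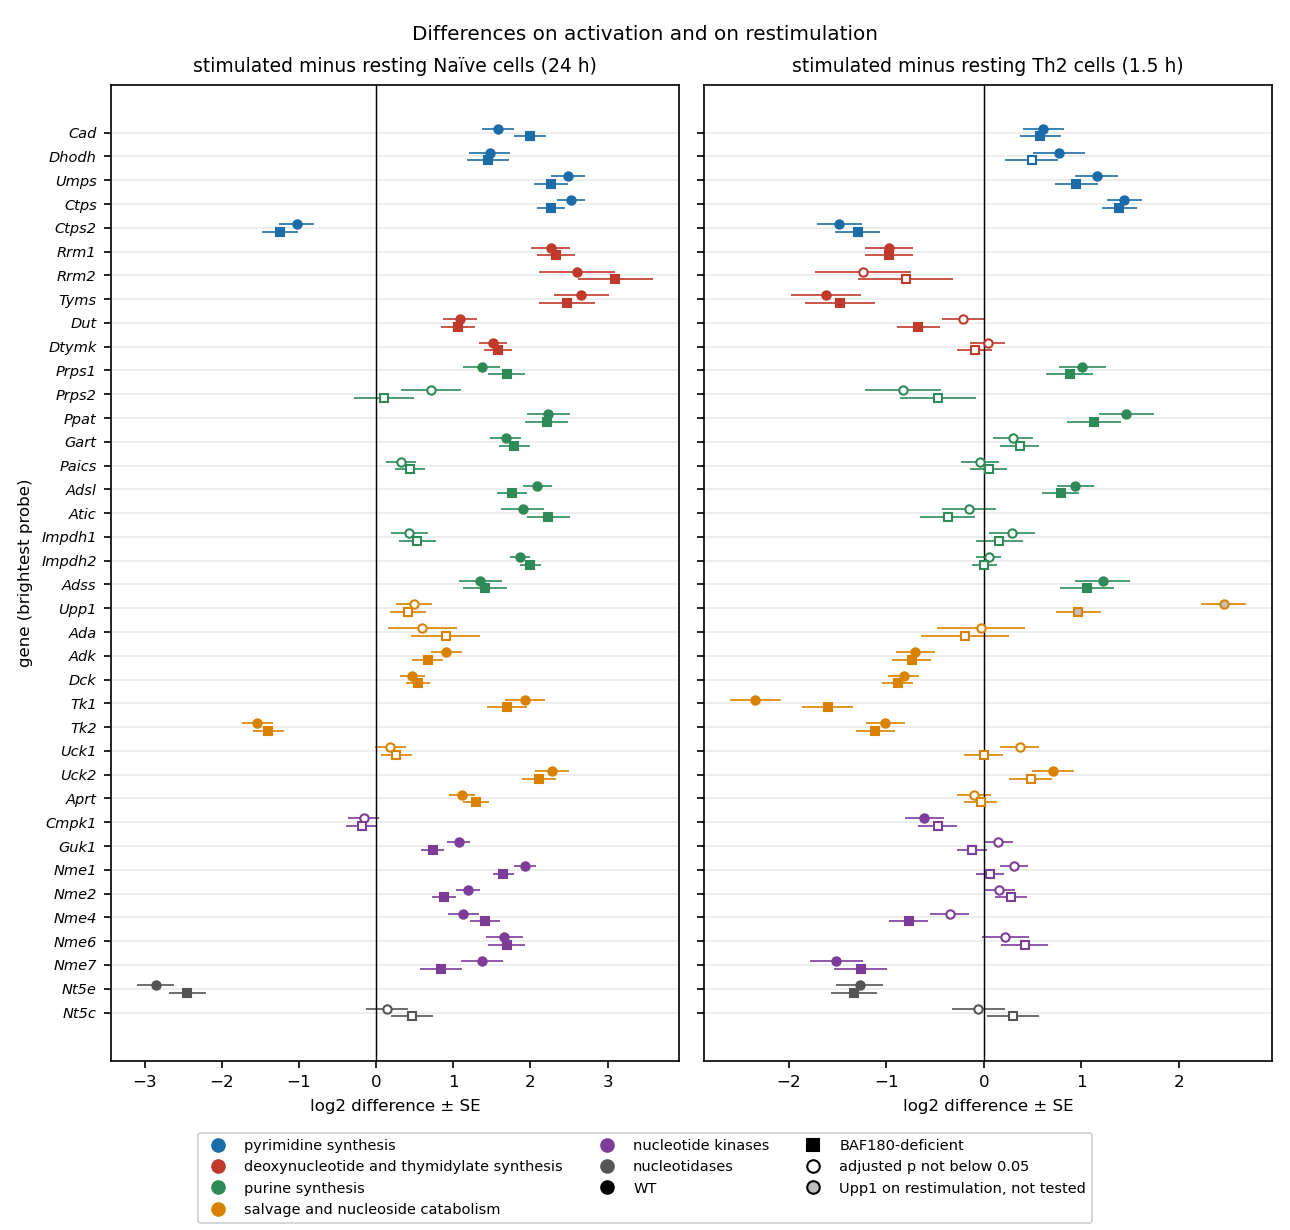
Log2 difference ± SE of each of the 38 genes (rows, coloured by role) on activation of Naïve cells for 24 h (left) and on restimulation of Th2 cells for 1.5 h (right), in WT (circles) and BAF180-deficient cells (squares), with filled symbols at an adjusted p below 0.05 and grey ones for Upp1 on restimulation, which was not tested. On the left 27 genes lie to the right of 0 with filled symbols in both genotypes; on the right, the pyrimidine genes other than Ctps2 lie to the right of 0 and Rrm1, Tyms, Tk1 and Nme7 to the left of it.

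The genes that rose in restimulated Th2 cells had, apart from Upp1, also risen on activation. Ctps was higher by 1.44 ± 0.18 in WT and 1.39 ± 0.18 in BAF180-deficient cells, with adjusted p-values of 4.3e-06 and 7.8e-06. Ppat was higher by 1.46 ± 0.28 and 1.13 ± 0.28, Umps by 1.16 ± 0.22 and 0.95 ± 0.22, Adsl by 0.94 ± 0.19 and 0.79 ± 0.19. Adss read 6.17, 6.80 and 6.65 in resting Naïve, 7.41, 8.37 and 7.91 in stimulated Naïve, 6.74, 6.62 and 6.67 in resting Th2 and 7.80, 7.84 and 8.07 in stimulated Th2 cells on the WT arrays, so that each stimulated array lies above each resting one, and it rose by 1.22 ± 0.28 and 1.06 ± 0.28. Prps1 read 7.86, 8.07 and 8.18 in resting Naïve, 9.09, 9.65 and 9.48 in stimulated Naïve, 8.48, 8.30 and 8.44 in resting Th2 and 9.35, 9.33 and 9.56 in stimulated Th2 cells, with the same separation, and rose by 1.01 ± 0.24 and 0.88 ± 0.24. In BAF180-deficient cells the call of Adss was lost without stimulated Th2 replicate B (0.86, adjusted p = 0.0521) and that of Prps1 without resting Th2 replicate A (0.61, adjusted p = 0.0748). Smaller rises depended on single arrays as well. Cad rose by 0.61 ± 0.21 (adjusted p = 0.0346), and by 0.48 without WT resting Th2 replicate A (adjusted p = 0.155) and 0.39 without WT stimulated Th2 replicate A (adjusted p = 0.223). Uck2 rose by 0.71 ± 0.22 (adjusted p = 0.0167), and by 0.46 without WT resting Th2 replicate C (adjusted p = 0.133) and 0.68 without WT stimulated Th2 replicate C (adjusted p = 0.0505). Dhodh read 5.15, 6.0 and 6.26 in resting Naïve, 7.16, 7.41 and 7.26 in stimulated Naïve, 6.26, 6.29 and 6.04 in resting Th2 and 7.03, 7.08 and 6.78 in stimulated Th2 cells and rose by 0.77 ± 0.27 (adjusted p = 0.0354). Its call was lost without WT resting Th2 replicate A, B or C and without WT stimulated Th2 replicate A or B, with values between 0.69 and 0.81.

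In WT cells 6 genes rose on activation and fell on restimulation, namely Rrm1, Tyms, Tk1, Dck, Adk and Nme7, and 3 genes, Ctps2, Tk2 and Nt5e, fell in both. These 2 comparisons share no array, and they differ in agents, time and starting cells. The 6 genes fell in BAF180-deficient cells as well, where Dut (-0.67 ± 0.22) and Nme4 (-0.77 ± 0.20) were lower too. The call of Dut was lost without BAF180-deficient resting Th2 replicate A or C or stimulated Th2 replicate B, with differences of -0.52 to -0.66, and that of Adk without resting Th2 replicate B (-0.63, adjusted p = 0.051). Tk1 read 6.36, 6.42 and 7.21 in resting Naïve, 8.74, 8.22 and 8.83 in stimulated Naïve, 8.70, 8.63 and 9.67 in resting Th2 and 6.45, 6.64 and 6.90 in stimulated Th2 cells on the WT arrays and 6.96, 7.0 and 6.88 in resting Naïve, 8.68, 8.39 and 8.88 in stimulated Naïve, 8.31, 8.37 and 8.70 in resting Th2 and 6.87, 6.51 and 7.20 in stimulated Th2 cells of BAF180-deficient mice. Its WT stimulated Th2 arrays lie in the range of its WT resting Naïve arrays. It fell by 2.34 ± 0.26 in WT cells (adjusted p = 9.24e-07), and the difference in BAF180-deficient cells was -1.6 ± 0.26. A second, dimmer probe of Tk1, detected on 11 arrays, differed by -0.48 in WT cells (adjusted p = 0.208) and by -0.81 in BAF180-deficient cells (adjusted p = 0.0254). Tyms fell by 1.62 ± 0.36 in WT cells (adjusted p = 0.00184), with a difference of -1.47 ± 0.36 in BAF180-deficient cells. Its second probe differed by -0.89 in WT cells (adjusted p = 0.058, and 0.00573 with the replicate letter as a block). Rrm1 read 6.61, 6.55 and 7.19 in resting Naïve, 9.08, 8.75 and 9.29 in stimulated Naïve, 8.57, 7.96 and 8.52 in resting Th2 and 7.16, 7.19 and 7.79 in stimulated Th2 cells, without overlap between resting and stimulated Th2 arrays, and differed by -0.97 ± 0.25 in WT and -0.97 ± 0.25 in BAF180-deficient cells.

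**Figure D3:**
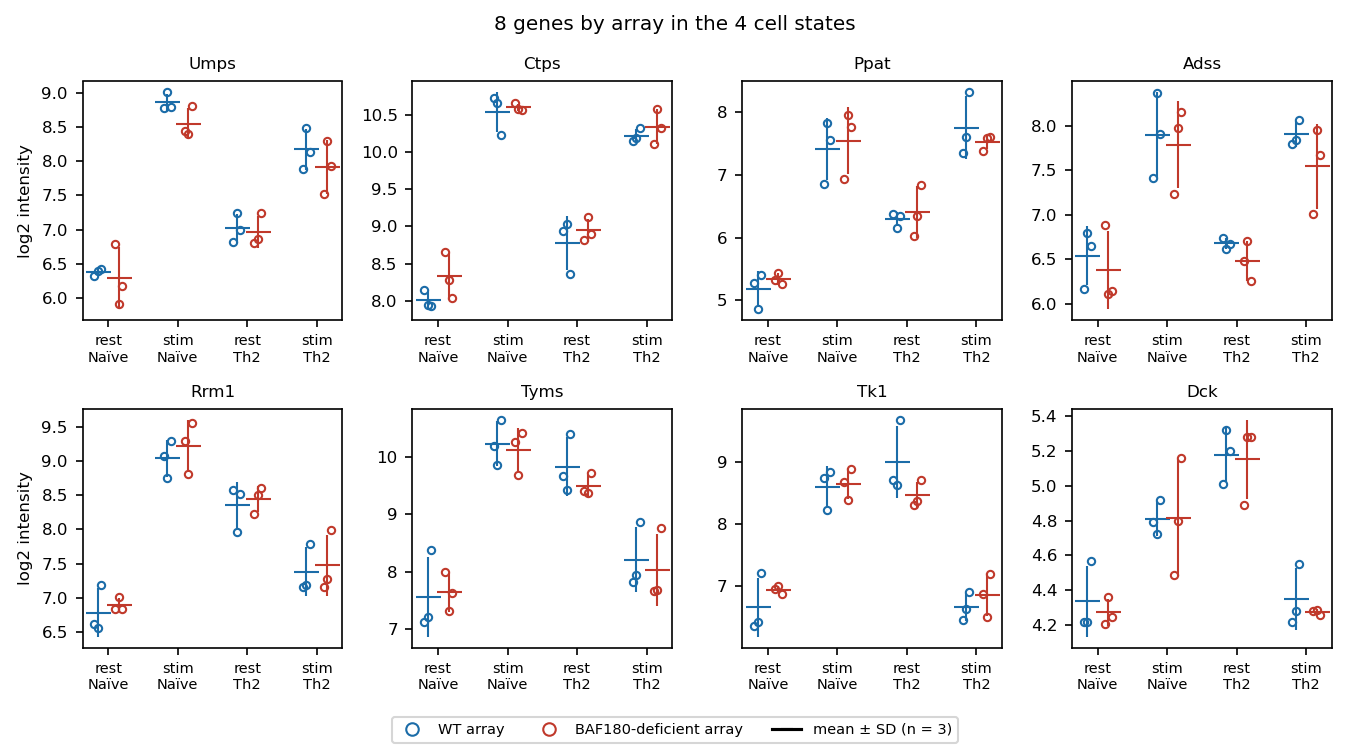
Log2 intensity on each array (circles, 3 per group) with mean ± SD for 4 genes that rose on restimulation of Th2 cells (top row) and 4 that fell (bottom row), in the 4 states and both genotypes; the vertical axes differ between panels and do not start at 0. Umps, Ctps, Ppat and Adss go up at each stimulation, whereas Rrm1, Tyms, Tk1 and Dck go up on activation and down on restimulation.

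Dck was not detected on any stimulated Th2 array and was lower there by at least 1.43 times in WT and 1.4 times in BAF180-deficient cells. Nme7 read 4.61, 5.44 and 5.82 in resting Naïve, 6.62, 6.37 and 6.98 in stimulated Naïve, 6.33, 6.39 and 6.62 in resting Th2 and 4.57, 4.91 and 5.33 in stimulated Th2 cells and fell by 1.51 ± 0.27 (adjusted p = 0.000248), with a difference of -1.26 ± 0.27 in BAF180-deficient cells. Another of its 4 kept probes, detected on all arrays, did not pass on activation of WT cells (0.43). Adk read 8.73, 9.0 and 9.45 in resting Naïve, 9.80, 10.11 and 9.99 in stimulated Naïve, 9.42, 8.89 and 9.38 in resting Th2 and 8.73, 8.24 and 8.61 in stimulated Th2 cells and fell by 0.70 ± 0.20 (adjusted p = 0.0111). Without WT resting Th2 replicate A the difference was -0.61 (adjusted p = 0.0559), and without WT stimulated Th2 replicate B it was -0.56 (adjusted p = 0.0723). The second, dimmer probe of Adk disagreed, with a difference of 0.034 ± 0.24 in WT cells (adjusted p = 0.959) and of 0.14 ± 0.24 in BAF180-deficient cells (adjusted p = 0.756). Nt5e was not detected in restimulated WT Th2 cells and was lower by at least 1.99 times. Cmpk1 fell by 0.61 ± 0.20 (adjusted p = 0.0291), which became -0.41 without WT resting Th2 replicate A (adjusted p = 0.182) and -0.50 without WT stimulated Th2 replicate C (adjusted p = 0.125). Rrm2 spread widely between replicates and read 4.68, 4.47 and 5.45 in resting Naïve, 6.89, 7.58 and 7.95 in stimulated Naïve, 7.30, 6.96 and 8.51 in resting Th2 and 5.69, 5.89 and 7.47 in stimulated Th2 cells. Its difference of -1.24 ± 0.49 was not called (adjusted p = 0.0661), and the adjusted p was 0.000915 with the replicate letter as a block. Replicate C was the highest array for Rrm2 in each WT state, and without WT stimulated Th2 replicate C the difference was -1.80 (adjusted p = 0.00895). In BAF180-deficient cells it was -0.80 ± 0.49 (adjusted p = 0.271, and 0.0239 with the block).

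Cell cycle markers moved in the same comparison. Among 18 S phase markers 7 were lower and 1 was higher in restimulated WT Th2 cells, with a median of -0.64, and among 8 mitosis markers 7 were lower, with a median of -1.44. Their summed intensities were 9060 to 12700 in resting and 5020 to 7110 in stimulated WT Th2 cells for S phase, and 3800 to 5690 and 1330 to 2230 for mitosis. The part of these changes in the fall of the deoxynucleotide and thymidine salvage genes was not tested. One-carbon and folate genes, in contrast, were higher in 9 of 12 cases with a median of 1.01, among them Mthfd2 (2.00 ± 0.31), Shmt1 (2.03 ± 0.19) and the folate carrier Slc19a1 (2.17 ± 0.26). The transporter Slc29a1 rose by 1.99 ± 0.25. Of the pentose phosphate genes 2 of 8 were lower and none was higher, and of the breakdown genes 1 of 13 was higher and 2 were lower. By the same rule 12.5% of all genes were higher and 15.9% were lower, so the breakdown genes did not stand out.

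Uridine phosphorylase, encoded by Upp1, splits uridine into uracil and ribose phosphate. In WT mice its brightest probe read 4.92, 4.39 and 4.47 in resting Naïve, 5.32, 4.64 and 5.29 in stimulated Naïve, 4.72, 4.45 and 4.94 in resting Th2 and 7.13, 7.37 and 7.0 in stimulated Th2 cells. In BAF180-deficient mice it read 5.05, 4.41 and 4.70 in resting Naïve, 5.66, 4.89 and 4.84 in stimulated Naïve, 4.51, 4.52 and 4.52 in resting Th2 and 5.60, 5.15 and 5.71 in stimulated Th2 cells. The 3 WT stimulated Th2 arrays lie above all other arrays. The BAF180-deficient ones lie between them and the resting Th2 arrays, with 2 WT arrays and 1 BAF180-deficient array of stimulated Naïve cells within their range. The mean was 7.17 ± 0.19 (SD, n = 3) in WT and 5.49 ± 0.30 in BAF180-deficient stimulated Th2 cells, a difference of -1.68 ± 0.23. Restimulation raised the level by 2.46 ± 0.23 in WT cells. In BAF180-deficient resting Th2 cells Upp1 was not detected, and its rise there was at least 1.88 times. The other probes were dimmer and read 5.47, 6.11 and 5.71 against 4.56, 4.32 and 4.95, and 4.67, 5.50 and 5.20 against 4.25, 4.30 and 4.49, in WT and BAF180-deficient stimulated Th2 cells. On these arrays the genotypes do not overlap on any of the 3 probes. Upp1 was treated as selected on the same arrays, so this adds no support to the difference. In the other 3 states the genotypes overlapped on the brightest probe. It was not detected in WT resting Naïve or in BAF180-deficient resting Th2 cells, and the difference between genotypes was 0.048 in stimulated Naïve cells. In stimulated Th2 cells the difference lay between -1.79 and -1.22 under 13 alternatives, which reuse these arrays. No test of it is given, and meeting the 4 criteria would be none, because Upp1 was treated as selected on this difference. Whether Upp1 met them also depended on the fit. It did with all 24 arrays and did not when only the 6 stimulated Th2 arrays were fitted.

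**Figure D4:**
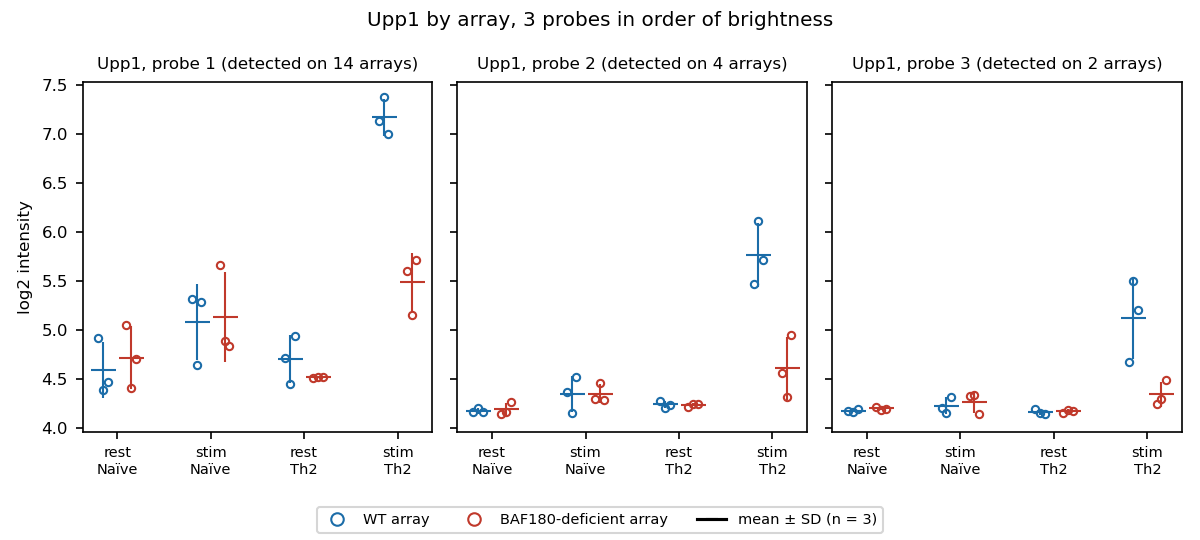
Log2 intensity of the 3 Upp1 probes (panels, brightest first) on each array (circles) with mean ± SD of 3 arrays, by cell state and genotype, on an axis that does not start at 0. Each probe is highest in WT stimulated Th2 cells, at 7.0 to 7.37 on the brightest, and lower in BAF180-deficient stimulated Th2 cells, at 5.15 to 5.71.

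In resting Naïve, stimulated Naïve and resting Th2 cells no member was called between the genotypes. The 4 criteria of the study's methods (signal, p, FDR and Z-ratio) were taken with values of the limma fit, without a separate signal filter. This differs from the study's own procedure, and the counts are not its counts. So taken, 0 of the 38 genes met the criteria in any of the 3 states, where 0.758%, 0.115% and 0.106% of all 10419 genes did. Members with an unadjusted limma p below 0.05 numbered 3 of 38 in each, where 750, 241 and 373 of all 10419 genes had one. The members were Guk1, Nme1 and Nme2 in resting Naïve cells and Cad, Aprt and Nt5e in stimulated Naïve cells. In resting Th2 cells they were Cad, Guk1 and Nme4. All of these members were higher in BAF180-deficient cells. In stimulated Th2 cells, where 0.096% of all genes met the criteria, the members were not tested, because earlier results of these data singled out Upp1 there. Without Upp1 the differences ranged from -0.26 to 0.46, from -0.33 to 0.58, from -0.55 to 0.77 and, in stimulated Th2 cells, from -0.36 to 0.46, and the 95% intervals reached a median of 0.458 to either side.

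Cad read 6.85, 6.60 and 7.20 in BAF180-deficient and 6.15, 6.56 and 6.53 in WT resting Th2 cells, a gap without overlap and a difference of 0.47 with an adjusted p of 1. Nme4 read 6.91, 7.02 and 7.26 against 6.28, 6.21 and 6.38 there. Its difference of 0.77 was the largest after that of Upp1, with an FDR of 0.465. With the replicate letter as a block the FDR was 0.18 and Nme4 met the 4 criteria, as it did when only the arrays of that state were normalized together (0.79, FDR of 0.162). Guk1 read 8.74, 8.90 and 8.93 against 8.38, 8.42 and 8.43 in resting Th2 cells and 8.83, 8.91 and 9.16 against 8.21, 8.65 and 8.67 in resting Naïve cells, and was called in the latter only when WT resting Naïve replicate C was left out. The genotypes were apart on every array for 3, 3, 7 and 4 of the 38 members in the 4 states. These are 7.89%, 7.89%, 18.4% and 10.5%, against 7.99%, 6.59%, 10.3% and 7.47% of all genes. The 4 in stimulated Th2 cells include Upp1, which was treated as selected on that difference.

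**Figure D5:**
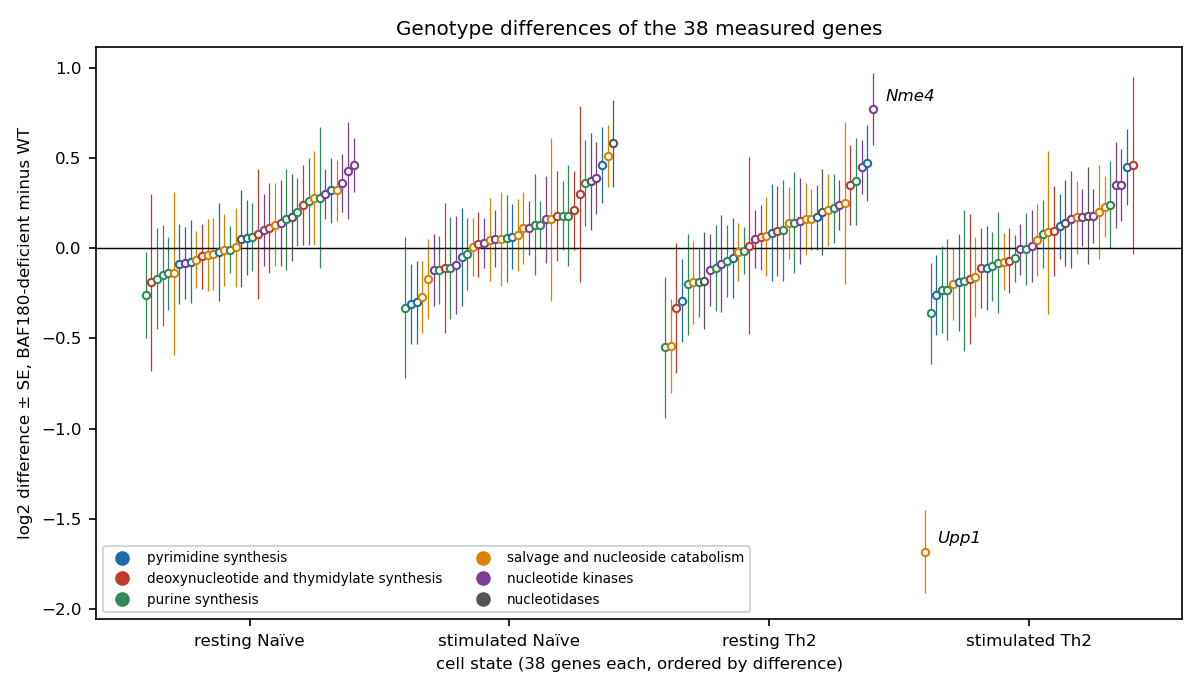
Log2 difference ± SE between BAF180-deficient and WT cells for the 38 genes (points, coloured by role and ordered by difference) in each of the 4 states. Upp1 in stimulated Th2 cells lies apart at -1.68, a value with no test, and Nme4 in resting Th2 cells, at 0.77, is the highest point.

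Whether BAF180 changed the size of a response was tested as the difference between the WT and BAF180-deficient responses. None of the genes passed a limma adjusted p of 0.05 for activation, for resting Th2 against resting Naïve cells, or, without Upp1, for restimulation, where 0.0096%, 0.0096% and 0% of all genes did. Members other than Upp1 with an unadjusted limma p below 0.05 numbered 0, 2 and 0, where 237, 298 and 187 of all 10419 genes had one. The 2 members were Tk1 (-0.82) and Nme4 (0.67), which differed in how far resting Th2 cells stood from resting Naïve cells. The 95% intervals of these differences reached a median of 0.636 to either side.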

How the data were processed

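RNA of mouse CD4+ T cells, with or without BAF180, was profiled on 24 Illumina MouseRef-8 v2 BeadChip arrays, 3 for each of 2 genotypes in 4 cell states, grouped by their GEO labels. The authors deposited 1 table that pairs each non-normalized probe intensity with its detection p-value, and the submitters' processing notes name GenomeStudio 1.6.0. The Z-score normalization that the methods of the study describe had not been applied to the deposited intensities. The text file names no BeadChip, so BeadChip could not be fitted as a block.

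Intensities were corrected with the detection p-values, offset by 16, quantile-normalized and set on the log2 scale with neqc of limma 3.58.1 in R 4.3.3. The filter retained the 14246 of 25697 probes whose detection p reached 0.02 or less on 1 array or more. All arrays entered 1 lmFit and eBayes fit of 8 group means, with 16 residual degrees of freedom, and the Benjamini-Hochberg adjustment ran over all kept probes. All adjusted p-values come from limma. State comparisons and differences between responses were called at an adjusted p below 0.05. Genotype comparisons were called by a form of the 4 criteria of the study's methods (signal above 0, p below 0.05, FDR below 0.3 and a Z-ratio beyond 1.5), with limma's p and FDR. The Z-ratio was the log2 difference divided by the standard deviation of the differences of all kept probes, and Z-scores were not used. Signal above 0 was not applied as a separate filter. These calls are therefore not those of the study. A gene was represented by its brightest kept probe, and 10419 genes had one. Of 76 member probes 69 were kept. Probes were named through Entrez identifiers, accessions or symbols, so that Dut and Cmpk1 are the array's Dutp and Cmpk. A gene detected on no array of a group has only a bound there, and its fold is given as "at least", from the mean of the group that had it over the lowest level among detected probes or the measured level, whichever was higher.

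The members, the surrounding pathway lists and the cell type markers were chosen with earlier results of these data known, and the motifs after the values were seen. Every member is named or counted by role. Values on each array are printed for the members that the results turn on, and the heat map shows all 38. The replicate letters were read as pairs on a ground taken from the data. Pooled over states, arrays of the same letter deviated together from their group means in WT and BAF180-deficient cells (r = 0.301 for A, 0.136 for B and 0.516 for C). In single states this r ran from -0.00263 to 0.662. Between states of WT cells, r for A, B and C was -0.00917, 0.0523 and 0.102 for stimulated and resting Naïve cells. It was 0.105, 0.116 and 0.0172 for resting Th2 and resting Naïve cells, and 0.0232, 0.383 and 0.376 for stimulated and resting Th2 cells. In BAF180-deficient cells these r ran from 0.0771 to 0.427. The letters thus gave little ground for pairing with resting Naïve cells. The letter as a block was an alternative, beside other normalizations, filters, call rules and the omission of each array. Steps across many probes were tested on simulated data.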

Additional observations from a re-analysis of the deposited data

How the results depend on the processing

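With the replicate letter as a block, the members called were 32, 21, 24 and 21 in WT cells for activation, resting Th2 against resting Naïve cells, resting Th2 against stimulated Naïve cells and restimulation, where 30, 19, 21 and 20 were called without it, and 32, 23, 21 and 20 against 30, 20, 19 and 19 in BAF180-deficient cells. The genotype comparison of resting Th2 cells went from 0 to 1 member, Nme4, with the block and with the arrays of that state normalized alone, and the block changed the call of no member in the other genotype comparisons. By the 4 criteria used for genotype, activation of WT cells gave 19 members, resting Th2 against resting Naïve cells 8 in either genotype, and restimulation 11 in WT and 9 in BAF180-deficient cells. With a log2 difference beyond 1 required as well, resting Th2 against resting Naïve cells gave 12 and 11, resting Th2 against stimulated Naïve BAF180-deficient cells 12, and restimulation 12 and 9. These rules ask for larger differences by construction. The share of all genes called was not counted with the block, with these rules or with an array left out. The counts therefore do not show whether the members changed more than other genes. In stimulated Th2 cells, where the members were not tested, Upp1 met the criteria with all arrays. No member did (0 members) when only those 6 arrays were fitted. Neither outcome is a test of Upp1, which was treated as selected there. Leaving out 1 array at a time gave 29 to 31, 15 to 22, 19 to 22 and 17 to 20 members in the WT comparisons, 27 to 31, 15 to 20, 17 to 20 and 16 to 19 in the BAF180-deficient ones, and 0 to 1 in the genotype comparison of resting Naïve cells. Cmpk1 on activation of WT cells changed sign, to 0.035, with Z-score normalization, and Paics on restimulation of WT cells ranged from -0.17 to 0.057 when 1 array was left out. Neither was called, and the cause was not tested. The other single-gene values checked kept their direction. The 3 arrays per group, and signal near background for Paics and Dck, set the limit of what could be called.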
